A study of Brassica oleracea var. italica with 5 samples.

Results

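The nucleosome genes of broccoli (cultivar Qingxiu) were followed through germination and early sprout growth. The members are the unigenes that carry the nucleosome term of the Gene Ontology and match a nuclear *Arabidopsis* locus, and there were 36 of them among 19441 unigenes. Of these, 28 matched a histone gene and 8 matched genes of other proteins that carry the same term. The libraries came from euphyllas, which are the first true leaves, of sprouts grown for 11 days, from seeds at day 0 after germination, and from cotyledons of sprouts grown for 3, 7 and 11 days. All plants were wild type. The seeds had been washed in NaClO and kept overnight on wet filter paper, so they were imbibed, and the sprouts grew in peat and vermiculite under long days. Each tissue was sequenced as 1 library that pooled 3 biological replicates. No value therefore has a replicate error, each ratio compares 2 libraries rather than 2 conditions, and no p-value is given. The intervals given cover counting error only, and they are too narrow because counts exceeded the trimmed read pairs.

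The nucleosome wraps DNA around an octamer of the core histones H2A, H2B, H3 and H4, and the linker histone H1 binds where the DNA enters and leaves. Most core histone is made while DNA is copied, because each new chromosome needs a full set. Variants differ in when and where they are put in. In *Arabidopsis*, H3.1 is loaded behind the replication fork and H3.3 at transcribed genes at any time of the cell cycle, H2A.Z sits near the start of genes and in silent ones, H2A.W marks heterochromatin, H2A.X is phosphorylated at DNA breaks, and CENH3 builds the centromere. Plant histone mRNAs are polyadenylated, so poly-T capture retains them.

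Names and types were taken from the best *Arabidopsis* match. A hand-made table of 49 *Arabidopsis* histone loci found 28 with a unigene, and all 28 carried the nucleosome term. All 4 loci of canonical H2A, both of H2A.X, all 3 of H2A.W and the CENH3 locus were covered. Coverage was 3 of 4 for H2A.Z, 7 of 11 for H2B, 1 of 5 for H3.1, 2 of 3 for H3.3, 1 of 5 for other H3 genes, 2 of 8 for H4 and 2 of 3 for H1. Histone genes of 1 type are nearly identical, so a unigene can hold the reads of several broccoli genes and its level is uncertain as the level of any single gene. The unigenes were 355 to 3598 bp long, 21 of the 28 histone unigenes were longer than the matched gene, and a unigene that is much longer may be joined to a neighbouring transcript. They are assembled transcripts and carry no genome position in the deposited tables.

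The libraries held 6802615 mapped reads for euphyllas, 9563149 for seeds, and 7833709, 10285969 and 10312625 for cotyledons of 3, 7 and 11 days. A read was worth between 0.708 normalized units in seeds and 1.16 in euphyllas. Summed marker genes were compared with the tissue labels. The summed normalized value of 7 seed storage genes was 20.8 in euphyllas and 2966, 103, 42.0 and 39.7 in seeds and cotyledons of 3, 7 and 11 days. The sum of 5 photosynthesis genes was 63237 in euphyllas and 677, 24671, 126387 and 105229 along the same series, and the sum of 5 genes of young leaves was 2073 in euphyllas and 1380, 1002, 838 and 454. Single markers did not all follow these sums. The leaf genes AN3 and YAB3 had 34.7 and 25.4 in euphyllas and 241 and 55.9 in seeds. The sum of 2 glyoxylate cycle genes, which serve the use of stored oil, was 5755 in euphyllas and 41333, 79088, 5025 and 2809 in the series, and MLS of this pair had 5420 in euphyllas and 1552 in 11 day cotyledons.

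The 28 histone unigenes took 0.407% of all reads in euphyllas. The share was 0.164% in seeds and 0.261%, 0.137% and 0.0622% in cotyledons of 3, 7 and 11 days. On the normalized scale their sum was 31961 in euphyllas and 11124, 20798, 14834 and 6880 in seeds and cotyledons of 3, 7 and 11 days. Histone mRNA thus stood highest in the young true leaf and lowest in the cotyledon of the same sprout, with a smaller peak at 3 days inside the cotyledon series. In whole organs, fewer cells that make histones and less histone mRNA per cell cannot be told apart.

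**Figure D1:**
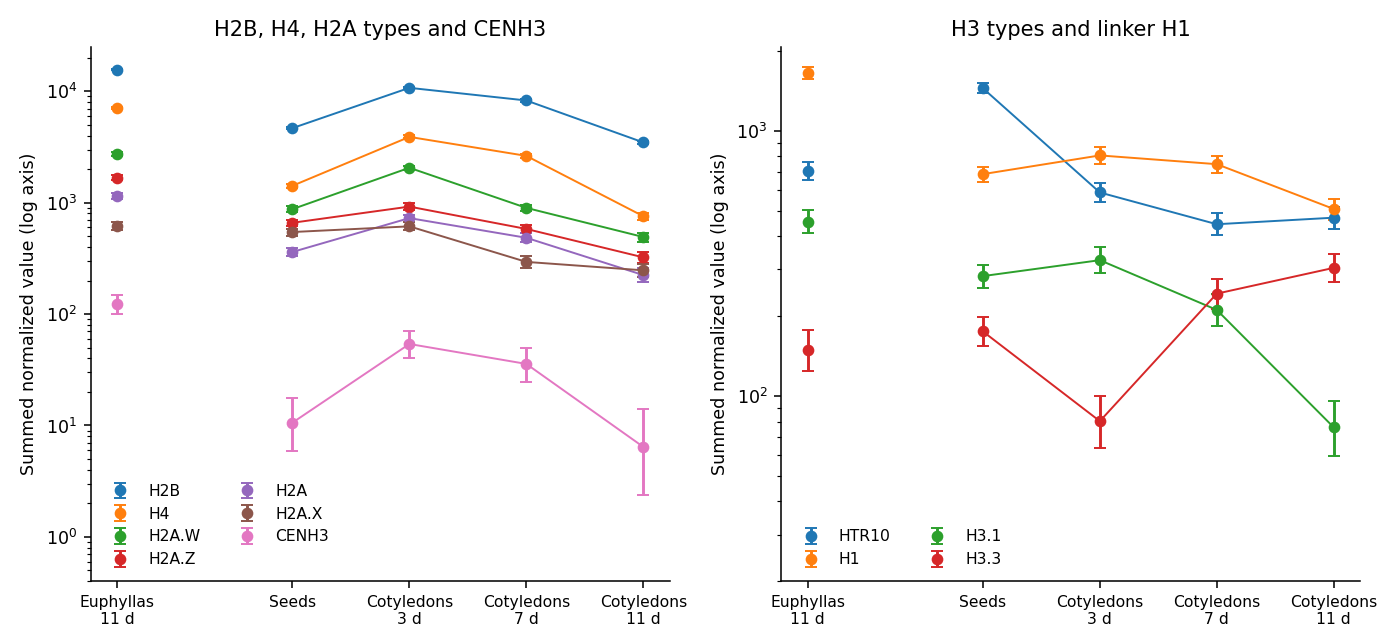
Summed normalized value of each histone type (y, log axis) in euphyllas and, joined by lines, in seeds and cotyledons of 3, 7 and 11 days (x). Points are 1 pooled library each and bars are exact 95% Poisson intervals of the reads. H2B, H4, the H2A types and CENH3 are highest in euphyllas (H2A.X by only 619 to 613 in 3 day cotyledons), while H3.3 is highest in 11 day cotyledons at 304 and HTR10 in seeds at 1446.

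A member was called higher or lower between 2 libraries when the ratio of normalized values was at least 2, its exact 95% interval excluded 1, and the 2 libraries together held at least 20 reads. Between euphyllas and 11 day cotyledons, 25 of 35 tested members were called higher and 2 lower, against 21.0% and 26.3% of all tested unigenes. Among the histones, 20 of 27 were higher and 2 lower. The median log2 ratio was 1.86 for the members and -0.10 for all unigenes. With total reads as the scaling, the median of all unigenes in this pair moved to 0.38, and 30 members were called higher and 0 lower. Of 18104 unigenes that had 20 reads or more in all libraries together, 13.2% were highest in euphyllas, 24.6% were lowest in 11 day cotyledons and 5.43% were both. For the members these counts were 22, 19 and 16 of 36.

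**Figure D2:**
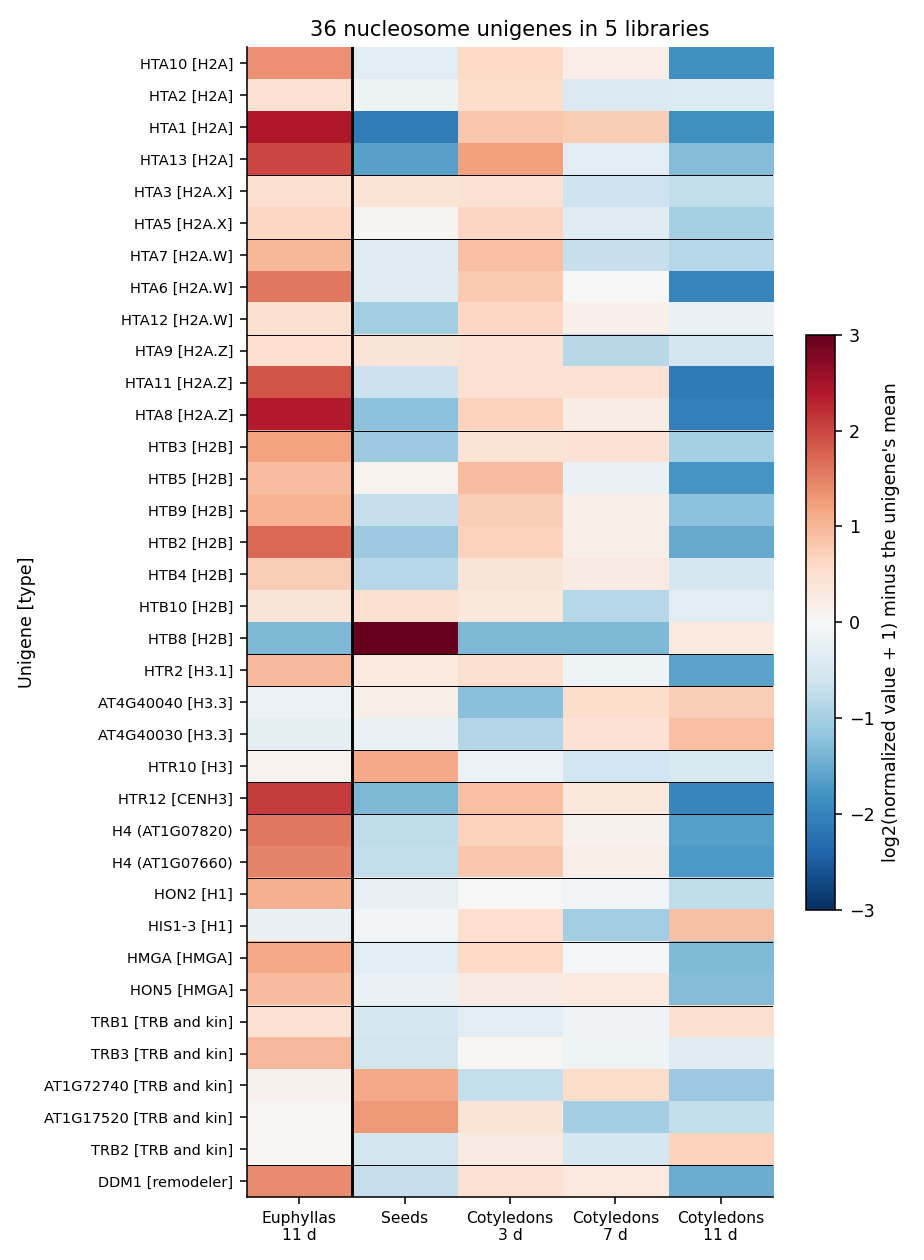
The 36 members (rows, grouped by type) in the 5 libraries (columns, euphyllas left of the line). Color is log2(normalized value + 1) minus the mean of the unigene over the libraries. Most rows are red in euphyllas and blue in 11 day cotyledons, and the exceptions include AT4G40040, AT4G40030, HIS1-3, HTB8 and TRB2.

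Histone H4, the core histone with the least varied sequence, differed more between euphyllas and 11 day cotyledons than any other type except CENH3. The larger H4 unigene (AT1G07820) had a normalized value of 6197 in euphyllas, and 1234, 3351, 2285 and 664 in seeds and cotyledons of 3, 7 and 11 days. The second (AT1G07660) had 860 in euphyllas and 183, 543, 346 and 92.2 along the same series. Both unigenes were highest in euphyllas and lowest in 11 day cotyledons. The folds of euphyllas over 11 day cotyledons were 9.34 (8.59 to 10.2) and 9.32 (7.45 to 11.8). The AT1G07660 unigene held between 12.2% and 13.9% of the H4 reads in every library, so the pair kept a near constant ratio. The H4 loci of *Arabidopsis* encode the same protein, and reads may have been shared between the unigenes.

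H2B, the partner of H2A in the octamer, was the type with the most reads. HTB3 led with 6054 normalized units in euphyllas and 1233, 3468, 3539 and 1318 in seeds and cotyledons of 3, 7 and 11 days. HTB2 had 3065 in euphyllas and 445, 1528, 1069 and 330 in that series, and its fold of euphyllas over 11 day cotyledons was 9.28 (8.24 to 10.5). HTB9 had 2204 in euphyllas and 661, 1786, 1204 and 455. These were highest in euphyllas, whereas HTB5 was as high in 3 day cotyledons, with 2044 in euphyllas and 1170, 2073, 951 and 316 along the series. Per kilobase of unigene, HTB3 reached 5269 normalized units in euphyllas and the larger H4 unigene 4742, the highest of all members in that library.

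The remaining H2B unigenes, named after their values were seen, did not follow this pattern alike. HTB4 had 1806 in euphyllas and 594, 1407, 1294 and 756 in seeds and cotyledons of 3, 7 and 11 days, a fold of euphyllas over 11 day cotyledons of 2.39 (2.18 to 2.62). HTB10 stood close in euphyllas, seeds and 3 day cotyledons, with 498 in euphyllas and 529, 472, 208 and 298 along the series. Its unigene of 2513 bp is 6.31 times as long as the matched gene. HTB8, a divergent H2B that *Arabidopsis* keeps for seeds and sperm, had 48 reads in seeds, 2 in 11 day cotyledons and 0 in the other 3 libraries. Taking 0 as a floor of 3 reads per library, it was 11.1-fold lower in 3 day cotyledons and 9.80-fold lower in euphyllas than in seeds. These ratios depend on the floor and are not lower limits.

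Histone H2A comes in 4 types here, and the share of each in the reads of the family shifted between tissues. H2A.X took 10.1% (9.28 to 10.9) of the H2A family reads in euphyllas and 22.3%, 14.2%, 13.0% and 19.2% in seeds and cotyledons of 3, 7 and 11 days. H2A.W took 44.2% in euphyllas and 35.8%, 47.6%, 39.8% and 38.3% in the series. Per unit length the H2A.W share was 46.5% in euphyllas and 49.0% in 11 day cotyledons, so the order of these libraries depends on the unit. In reads, H2A.Z lay between 21.4% and 27.1% and canonical H2A between 14.8% and 21.5% in all 5 libraries. H2A.X was thus the type whose share was smallest where total histone mRNA was highest. The exact 95% interval of its share in euphyllas overlapped none of the other 4, and the nearest was 11.6 to 14.5 in 7 day cotyledons. Because the intervals are too narrow, it is uncertain whether these 2 libraries stand apart. Per unit length H2A.X took 9.02% in euphyllas and 21.2%, 12.6%, 11.6% and 17.1% in the series, again lowest in euphyllas.

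**Figure D3:**
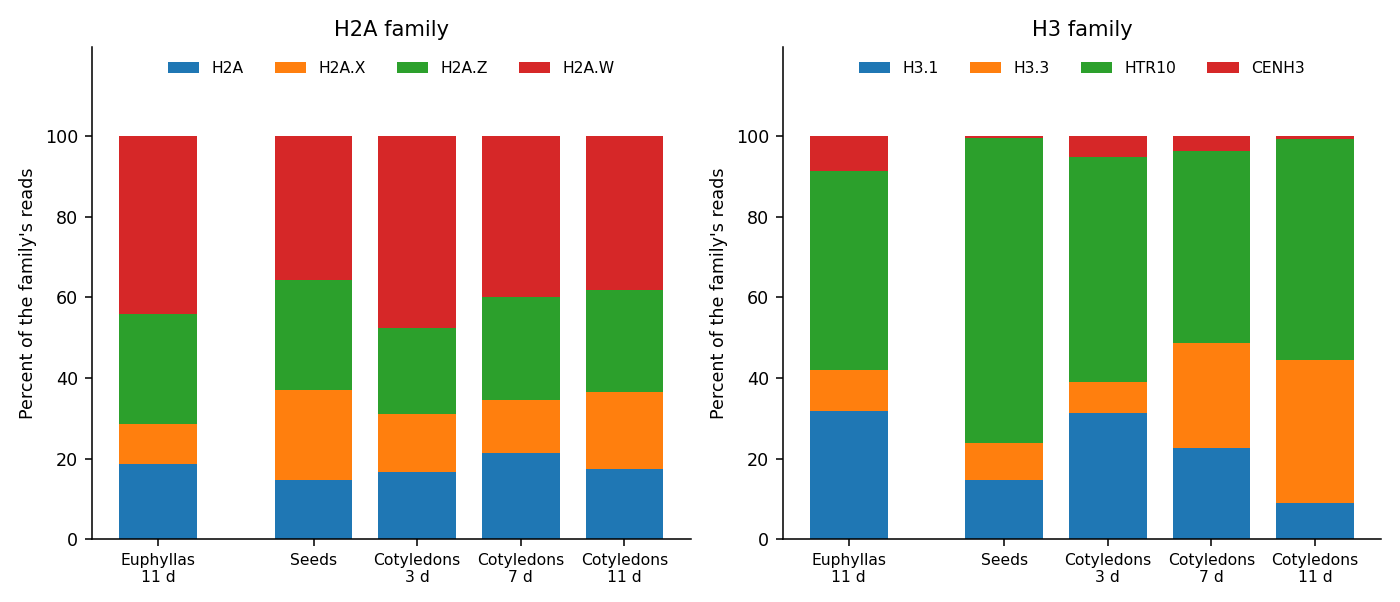
Percent of the reads of the H2A family (left) and of the H3 family (right) that each type took (y, stacked to 100) in euphyllas, seeds and cotyledons of 3, 7 and 11 days (x). H2A.X is smallest in euphyllas at 10.1%, and H3.3 is largest in 11 day cotyledons at 35.5%.

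Among canonical H2A unigenes, HTA10 had a normalized value of 540 in euphyllas and 167, 316, 242 and 57.9 in seeds and cotyledons of 3, 7 and 11 days. HTA1, known in *Arabidopsis* for its part in T-DNA integration, had 261 in euphyllas and 10.6, 86.5, 83.0 and 12.9, and HTA13 had 72.8 in euphyllas and 4.95, 41.7, 13.7 and 6.43. HTA2 had 272 in euphyllas and 178, 283, 146 and 147, a range of 1.94-fold over the 5 libraries. The folds of euphyllas over 11 day cotyledons were 20.3 (11.4 to 39.9) for HTA1, 11.3 (4.92 to 32.0) for HTA13 and 9.32 (7.02 to 12.6) for HTA10, and for HTA2 the fold was 1.85 (1.49 to 2.30) and not called. HTA2 accounted for 23.7% of canonical H2A reads in euphyllas and 65.6% in 11 day cotyledons.

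H2A.Z showed the same split between paralogs. HTA8 had 322 normalized units in euphyllas and 25.5, 99.7, 71.4 and 13.9 in seeds and cotyledons of 3, 7 and 11 days. HTA11 had 814 in euphyllas and 140, 304, 297 and 50.4 in the series, and HTA9 had 532 in euphyllas and 495, 519, 212 and 258. HTA8 and HTA11 were 23.1-fold (13.3 to 44.0) and 16.1-fold (12.0 to 22.2) higher in euphyllas than in 11 day cotyledons, and HTA9 2.06-fold (1.76 to 2.41). The fold of HTA8 was the largest of all members in this comparison, although its interval overlapped those of HTA1, HTR12, HTA11, HTA13 and HTA6. The dominant H2A.Z unigene changed accordingly. HTA9 held 31.9% of H2A.Z reads in euphyllas and 80.1% in 11 day cotyledons, while HTA11 held 48.8% in euphyllas and 15.6% in 11 day cotyledons. Per unit length these shares were 21.8% and 70.5% for HTA9.

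The H2A.W unigenes HTA6 and HTA7 differed from each other in old cotyledons. HTA6 had 1416 in euphyllas and 371, 824, 472 and 117 in seeds and cotyledons of 3, 7 and 11 days, and HTA7 had 1249 in euphyllas and 487, 1177, 387 and 344. Their folds of euphyllas over 11 day cotyledons were 12.1 (9.95 to 14.9) and 3.63 (3.20 to 4.12), with intervals that did not overlap. HTA12, with 50.8 in euphyllas and 17.0, 55.9, 39.9 and 31.1 in the series, was not called in this pair. Of the H2A.X unigenes, HTA3 had 468 in euphyllas and 442, 460, 218 and 198, and HTA5 had 151 in euphyllas and 103, 154, 75.6 and 48.2. Both were about level in euphyllas and 3 day cotyledons.

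**Figure D4:**
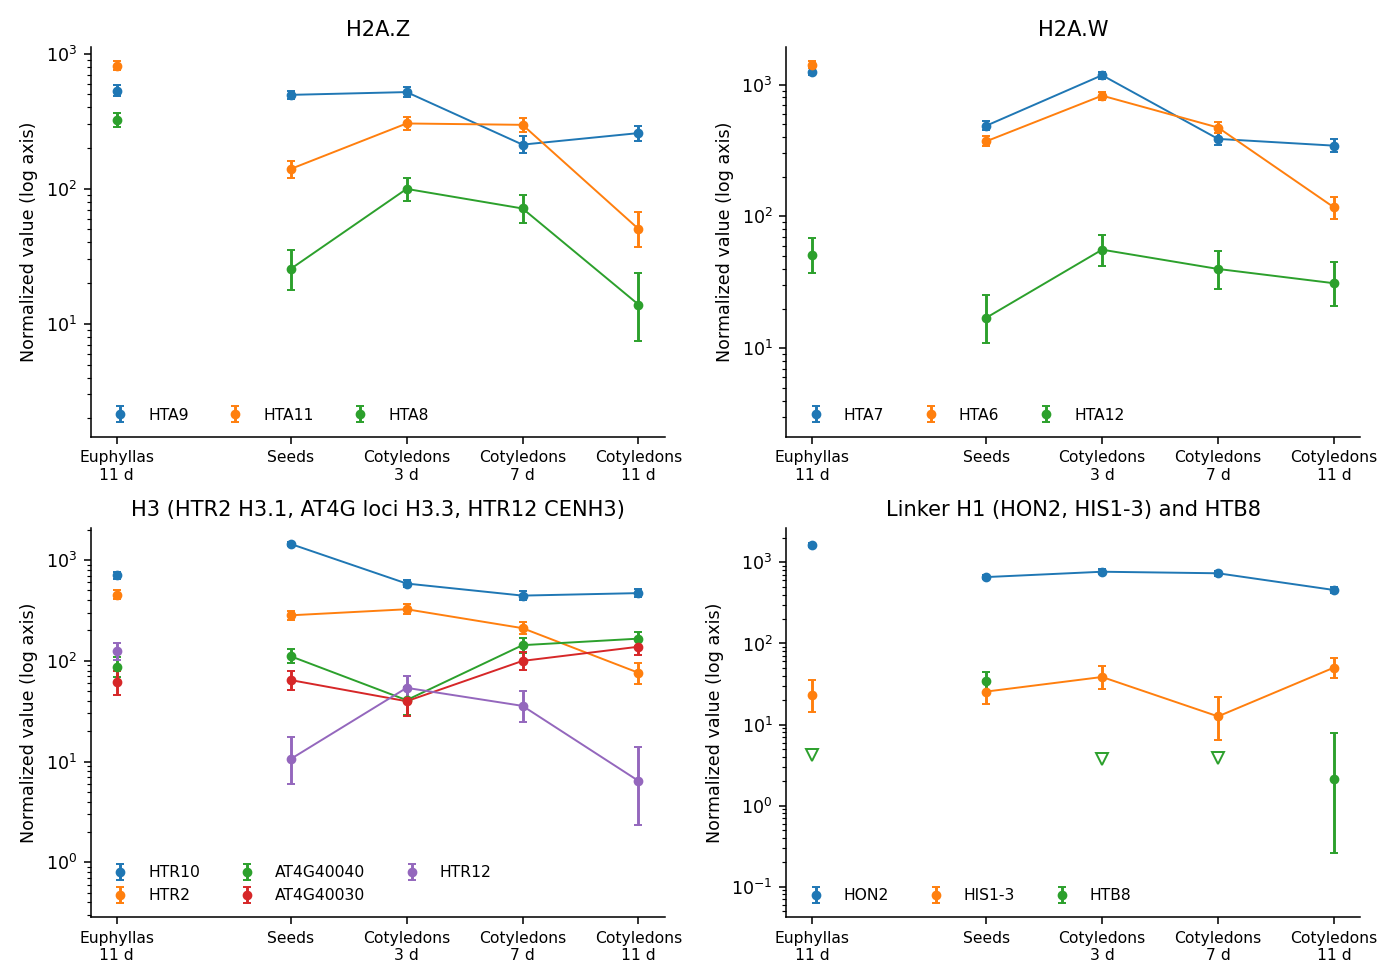
Normalized value (y, log axis) of single unigenes of H2A.Z, H2A.W, H3, linker H1 and HTB8 in euphyllas and in seeds and cotyledons of 3, 7 and 11 days (x). Bars are exact 95% Poisson intervals and open triangles are the upper limits where HTB8 had 0 reads. From 7 to 11 days HTA11 and HTA6 drop while HTA9 and HTA7 change little, and from 3 to 11 days the H3.3 unigenes climb while HTR2 drops.

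The summed H3 family differed least among the core histones. Its sum was 1433 in euphyllas and 1915, 1045, 934 and 857 in seeds and cotyledons of 3, 7 and 11 days, and the fold of euphyllas over 11 day cotyledons, 1.67 (1.53 to 1.83), was not called. With total reads as the scaling it was 2.35 and called, so the missing call depends on the scaling. The sum combined opposite courses. HTR2, the H3.1 unigene, had 454 in euphyllas and 283, 325, 211 and 76.1 in the series. It was 5.97-fold (4.62 to 7.79) higher in euphyllas than in 11 day cotyledons. Its unigene of 1810 bp is 2.99 times as long as the matched gene.

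From 3 to 11 days, and between euphyllas and 11 day cotyledons, the H3.3 unigenes moved against HTR2. Between euphyllas and 3 day cotyledons they did not. There the H3.3 sum was 1.86-fold (1.39 to 2.49) and HTR2 1.40-fold (1.20 to 1.62) higher in euphyllas, both short of the 2-fold limit. AT4G40040 had 87.8 in euphyllas and 111, 40.7, 143 and 166 in seeds and cotyledons of 3, 7 and 11 days, and AT4G40030 had 61.2 in euphyllas and 64.4, 39.7, 99.8 and 138. Both were lowest in 3 day cotyledons, where most other histones peaked within the series, and highest in 11 day cotyledons. Their sum was 3.02-fold (2.33 to 3.95) higher in 7 than in 3 day cotyledons. In euphyllas it was 2.04-fold (1.65 to 2.54) lower than in 11 day cotyledons. With total reads as the scaling this last ratio of euphyllas to 11 day cotyledons was 0.689 and no longer called. Taken singly on the normalized scale, AT4G40030 was called lower in euphyllas than in 11 day cotyledons, at 2.26-fold (1.63 to 3.17). AT4G40040 was 1.89-fold (1.43 to 2.52) lower there and not called.

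The share of H3.3 in the reads of H3.1 and H3.3 together does not depend on the scaling between libraries. It was 24.7% (21.1 to 28.6) in euphyllas and 38.3%, 19.8%, 53.5% and 80.0% in seeds and cotyledons of 3, 7 and 11 days, with an interval of 75.5 to 84.0 in 11 day cotyledons. Per unit length it was 21.7% in euphyllas and 77.1% in 11 day cotyledons. The H3.1 side of this share holds 1 unigene only, and HTR10, a further H3 unigene, is left out. Of all H3 family reads, H3.3 took 10.4% in euphyllas and 35.5% in 11 day cotyledons, where HTR10 took 54.8%.

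HTR10, which in *Arabidopsis* encodes an H3 of the male gamete, took 49.3% of H3 family reads in euphyllas and 75.5%, 56.0%, 47.6% and 54.8% in seeds and cotyledons of 3, 7 and 11 days. Its values were 706 in euphyllas and 1446, 585, 444 and 470 in the series, highest in seeds. With 1 of 5 H3.1 loci covered, it was not tested whether this unigene also holds reads of other H3 genes. HTR12, the centromeric CENH3, had 124 in euphyllas and 10.6, 53.9, 35.7 and 6.43. It was 19.2-fold (8.55 to 53.5) higher in euphyllas than in 11 day cotyledons, resting on 107 and 6 reads.

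The linker histones diverged as well. HON2, a main H1 of *Arabidopsis*, had 1630 in euphyllas and 660, 768, 735 and 457 in seeds and cotyledons of 3, 7 and 11 days, and it was 3.57-fold (3.20 to 3.99) higher in euphyllas than in 11 day cotyledons. HIS1-3, an H1 that drought and abscisic acid induce in *Arabidopsis*, had 23.1 in euphyllas and 25.5, 38.6, 12.6 and 50.4. It was 4.0-fold (2.09 to 8.28) higher in 11 than in 7 day cotyledons, and 2.18-fold (1.27 to 3.88) lower in euphyllas than in 11 day cotyledons. These HIS1-3 ratios rest on 47 and 12 reads and on 20 and 47 reads. The second of them was not called when the libraries were scaled to total reads.

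Of the 8 members that are no histones, HMGA and HON5, DNA-bending proteins with an H1-like domain, followed the core histones. HMGA had 1453 in euphyllas and 528, 996, 632 and 264 in seeds and cotyledons of 3, 7 and 11 days, and HON5 had 986 in euphyllas and 442, 613, 628 and 208. DDM1, the remodeler that keeps heterochromatin methylated, had 230 in euphyllas and 53.1, 117, 106 and 30.0, a fold of 7.66 (5.14 to 11.8) over 11 day cotyledons. The 5 telomere repeat binding proteins and relatives, which share an H1-like domain, were more varied, and 2 of them, TRB3 at 2.57-fold (1.60 to 4.23) and AT1G72740 at 2.48-fold (1.13 to 5.83), were called higher in euphyllas than in 11 day cotyledons. TRB1 had 140 in euphyllas and 72.2, 81.4, 94.5 and 143 in the series, and TRB3 had 71.6 in euphyllas and 24.1, 37.6, 32.6 and 27.9. AT1G72740 and AT1G17520 were highest in seeds, with 26.6 and 20.8 in euphyllas and 53.8 and 51.7 in seeds. TRB2, named after its values were seen, had 25.4 in euphyllas and 39.7 in 11 day cotyledons.

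**Figure D5:**
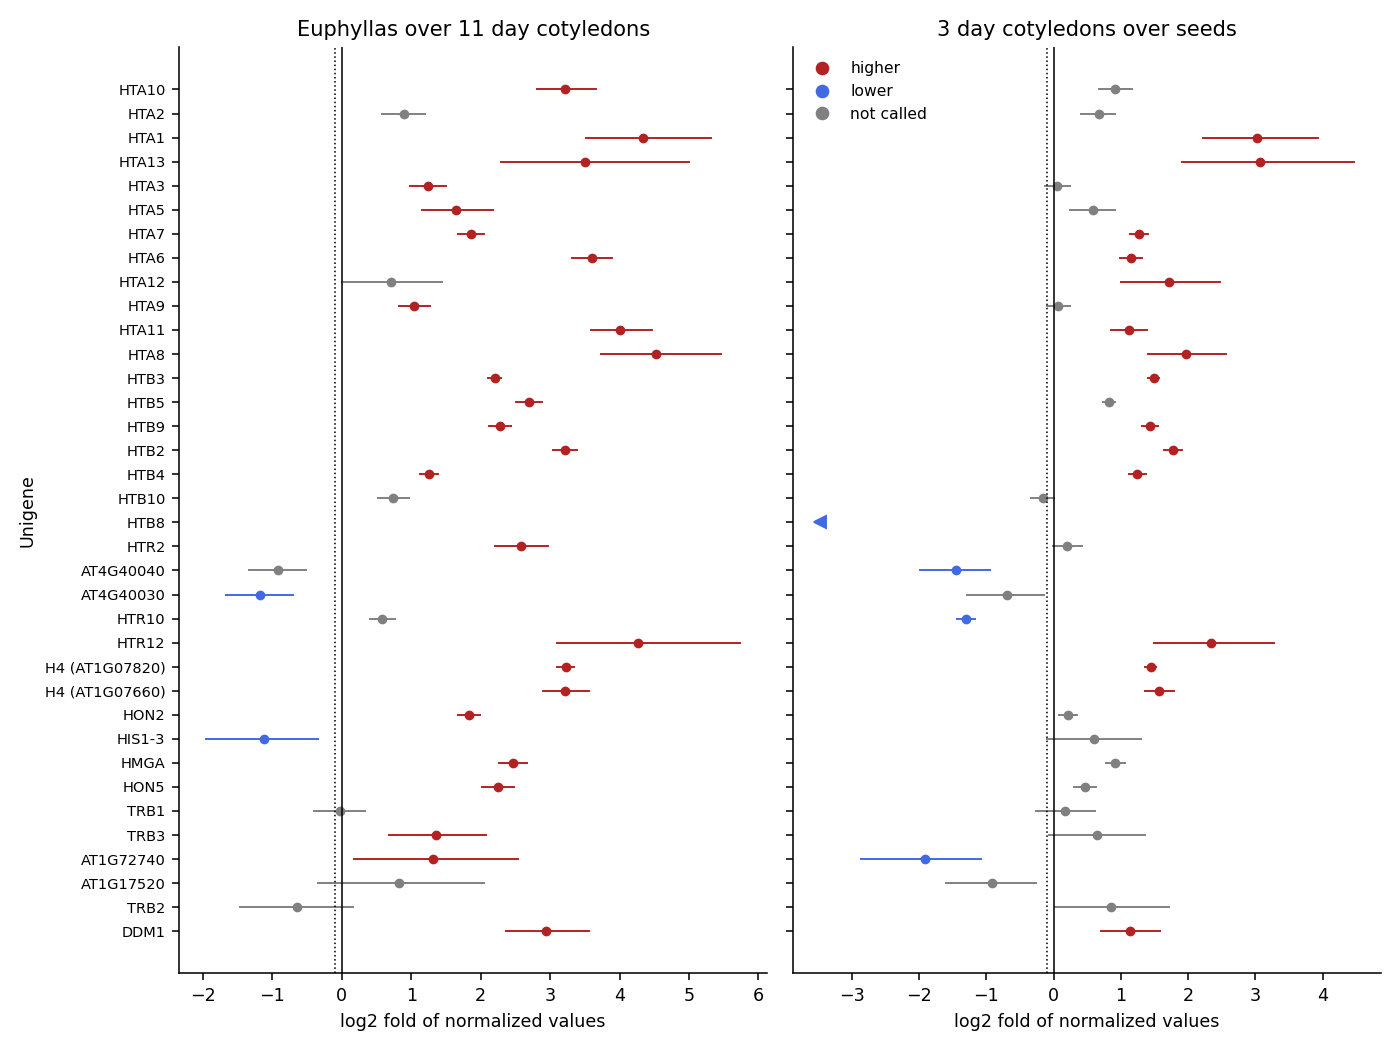
The log2 ratio of normalized values (x) for each member (y) between euphyllas and 11 day cotyledons (left) and between 3 day cotyledons and seeds (right). Bars are exact 95% intervals, colors mark members called higher (red) or lower (blue), and the dotted line is the median of all unigenes. The arrow is HTB8, with its 0 reads in 3 day cotyledons set to the floor of 3 reads. In the left panel 25 members are red and 2 blue, and in the right panel 15 are red and 4 blue.

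The step from seeds to 3 day cotyledons split the histones. In 3 day cotyledons 15 of 36 members were called higher than in seeds and 4 lower, against 22.1% and 22.5% of all tested unigenes, with a median log2 ratio of 0.82 for the members and -0.10 for all unigenes. The summed H4 and H2B values were 2.75-fold (2.60 to 2.90) and 2.30-fold (2.23 to 2.37) higher, with 2.33 and 1.95 when scaled to total reads, which ends the call for H2B. HTR12 was 5.08-fold (2.82 to 9.70) higher. HTA1 had the largest fold among members with at least 100 reads in the pair, 8.15 (4.67 to 15.2). Of those called lower, HTR10 was 2.47-fold (2.25 to 2.72) and AT4G40040 2.73-fold (1.92 to 3.97) lower in 3 day cotyledons, beside HTB8 and AT1G72740. The sums of H2A.X, H3.1 and H1 were 1.13, 1.15 and 1.18 times those in seeds, were not called, and were 0.956, 0.977 and 0.999 times with total reads as the scaling.

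Inside the cotyledon series the summed histone value was 1.40-fold (1.37 to 1.43) lower at 7 than at 3 days, short of the 2-fold limit, and 2.16-fold (2.09 to 2.22) lower at 11 than at 7 days. In 7 day cotyledons 9 of 35 members were called lower than at 3 days and 3 higher, against 15.4% and 23.3% of all tested unigenes. With total reads as the scaling these counts were 17 lower and 1 higher, and the median of all unigenes moved from 0.04 to -0.39. HTA7 was 3.04-fold (2.71 to 3.43) lower and HTB5 2.18-fold (2.02 to 2.36) lower at 7 days. The 3 higher members were AT4G40040 at 3.51-fold (2.45 to 5.13), AT4G40030 at 2.52-fold (1.72 to 3.75) and AT1G72740. HTB3 had a fold of 1.02 (0.973 to 1.07).

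In 11 day cotyledons 17 of 34 members were called lower than at 7 days and 2 higher, against 18.4% and 19.4% of all tested unigenes, with a median log2 ratio of -1.02 for the members and -0.01 for all unigenes. The summed H4 value was 3.48-fold (3.20 to 3.79) lower and H2B 2.38-fold (2.28 to 2.48) lower. HTA11 was 5.90-fold (4.32 to 8.21) lower, the largest fall among members with at least 100 reads in the pair. HIS1-3 and TRB2 were the 2 higher members. HTA7, HTA2, HTA3 and HTA9 were not called here and had folds of 0.890, 1.01, 0.908 and 1.22.

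Against younger cotyledons the euphyllas stood less far apart. In euphyllas 21 of 35 members were called higher than in 7 day cotyledons and 0 lower, against 11.6% and 17.2% of all tested unigenes. Set against 3 day cotyledons, 7 of 35 were called higher and 0 lower, against 14.9% and 10.2%. The 7 members were HTA8 at 3.23-fold (2.56 to 4.11), HTA1, HTA11, HTR12, AT4G40040, HON2 and HTB2. The other 20 of 27 tested histones were not called in that pair, and the summed H4 value was 1.81-fold (1.74 to 1.89) higher in euphyllas. These comparisons share libraries and are not independent of each other.

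Genes of DNA replication, chromatin marks, mitosis and the control of S phase were counted from lists. Of all tested unigenes, 21.0% were called higher and 26.3% lower in euphyllas than in 11 day cotyledons, and the counts of this pair are to be read beside these shares. Of the DNA replication genes, 11 of 12 were called higher and 0 lower, with a median log2 ratio of 3.25. The same list had 11 lower and 0 higher of 12 in 11 over 7 day cotyledons, where 18.4% of all tested unigenes were lower and 19.4% higher, with a median of -2.44. RNR1, a ribonucleotide reductase subunit, had 1063 in euphyllas and 326 in 11 day cotyledons. MCM3 had 1257 in euphyllas and 76.1 in 11 day cotyledons, a fold of 16.5 (13.0 to 21.3). Of 5 genes listed around chromatin marks at replication, 4 were higher in euphyllas and 0 lower. Among them were the maintenance DNA methyltransferase MET1 at 5.31-fold (4.49 to 6.31) and TSK at 5.70-fold (3.19 to 10.9). Of 5 mitosis genes, 2 were higher and 0 lower, CDKB2;1 at 2.28-fold and CDKB2;2 at 2.39-fold, a count too small to set apart from the 21.0% of all unigenes. Of 5 E2F and DP genes, regulators of S phase, 3 were higher and 0 lower, against the same 21.0%, with E2FA at 2.13-fold and E2FC at 2.10-fold. In 11 over 7 day cotyledons the mitosis list and the E2F and DP list each had 0 lower and 0 higher of 5. The chromatin mark list had 3 lower and 0 higher of 5 there.

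Histone chaperones carry histones to DNA. Between euphyllas and 11 day cotyledons 4 of 11 were called higher and 0 lower, against 21.0% and 26.3% of all tested unigenes, SPT16 at 2.25-fold (2.01 to 2.52) and NRP2 at 3.71-fold (3.18 to 4.34) among them. The other 2 were FAS1 and FAS2, named after their values were seen, which are subunits of the CAF-1 complex that loads H3.1 and H4 at the fork. MSI1, which CAF-1 shares with other complexes, was not called in this pair, at 1.47-fold (1.27 to 1.71). FAS1 had 196 in euphyllas and 141, 239, 148 and 12.9 in seeds and cotyledons of 3, 7 and 11 days. HIRA, of the H3.3 pathway and not called in this pair, had 230 in euphyllas and 224, 192, 199 and 165. Of 6 genes of variant exchange and remodeling, 2 were higher, not far from the 21.0% of all unigenes. They were DDM1 and ATRX, a helicase of the H3.3 pathway, at 2.01-fold (1.68 to 2.41).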

How the data were processed

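RNA of 5 broccoli tissues was measured, each as 1 library pooled from 3 biological replicates. The authors assembled the trimmed reads with Velvet and Oases, matched transcripts to *Arabidopsis*, mapped reads back with Bowtie and scaled them with DESeq. The sources used here name no version of these tools. The authors deposited raw read counts, the normalized signal (count divided by the DESeq size factor) and other columns such as unigene length in 10 tables of library pairs. Their 20 RPKM columns and their fold change, p-value and FDR columns were not used.

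Counts exceeded the trimmed read pairs, so mates were counted separately or some reads at several places, and the intervals are too narrow. Ratios of normalized values carry exact conditional binomial (Clopper-Pearson) intervals at 95%, and sums carry exact Poisson intervals. A call needs a fold of 2, an interval without 1 and 20 reads in the pair. Where 1 library had 0 reads a floor of 3 reads was used. Medians use log2(value + 1). The 4 main pairs were each later against earlier library, and euphyllas against 11 day cotyledons. Calls were tested on simulated Poisson counts only. These hold no replicate variation and no reads counted at several places, so they cannot show how the calls hold on real counts. Members, types and lists were chosen with earlier results of these data known. Named are, in each histone type, the 4 members with the most reads, and every H1, CENH3 and H2A.X member. Also named are the largest called fold in each direction among members with 100 reads in a main pair. Each list gives the 2 called members with the most reads between euphyllas and 11 day cotyledons. Some other genes, HIRA among them, were named outside this rule. Alternatives were total reads or TMM factors (edgeR 4.0.16, R 4.3.3) as scaling, a 4-fold limit, other read minimums, a 99.9% interval, unigenes up to 1500 bp, a pseudocount of 10, shares per length, and sums without the member with the most reads. Python 3.11.15, numpy 2.4.6, scipy 1.17.1 and pandas 2.3.3 were used.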

Additional observations from a re-analysis of the deposited data

How the results depend on the processing

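TMM factors left each type sum on its side of the 2-fold limit, and total reads changed more of them. Total reads gave 1 higher and 17 lower members in 7 over 3 day cotyledons, a median log2 ratio there of -0.99, and 0 lower members in euphyllas over 11 day cotyledons. They also turned the ratios of 3 day cotyledons to seeds to 0.956 for H2A.X, 0.977 for H3.1 and 0.999 for H1. A 4-fold limit left 3 higher and 1 lower member in 3 day cotyledons over seeds, 0 and 0 in 7 over 3 days, 0 and 6 in 11 over 7 days, and 0 lower in euphyllas over 11 day cotyledons. A minimum of 100 reads left 2 lower in 3 day cotyledons over seeds, 0 higher in 11 over 7 days and 1 lower in euphyllas over 11 day cotyledons. The stricter interval left 1 higher in 11 over 7 days and 1 lower in euphyllas over 11 day cotyledons. With unigenes up to 1500 bp there were 2 lower in 3 day cotyledons over seeds with a histone sum ratio of 2.01, 0 higher in 7 over 3 days and 1 lower in euphyllas over 11 day cotyledons. This last setting gave no value for H3.1 and H3.3, whose unigenes are all longer.

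Without the member with the most reads, the H3 family ratio of 7 to 3 days was 1.06, and the H1 ratio, then of HIS1-3 alone, was 4.0 in 11 over 7 days and 0.459 in euphyllas over 11 day cotyledons. Types with 1 member have no such value. The H3.3 share of H3.1 and H3.3 without AT4G40040 was 11.9% in euphyllas and 18.5%, 10.9%, 32.1% and 64.5% in seeds and cotyledons of 3, 7 and 11 days, since leaving out part of H3.3 lowers it. Per length the share in seeds was 34.5%. The order of the libraries by this share stayed the same in these settings. Over all settings, 174 ratios of sums kept their direction and side, 17 came to pass the limit, 7 no longer did and the 6 named above turned. In 3 day cotyledons over seeds, total reads ended the calls of H2A, H2A.W and H2B at 1.71, just under 2.0, and 1.95. Shares moved with length or left-out members in 87 settings and kept within counting error in 18. No paired analysis was possible because each tissue has 1 library. Members with few reads, such as HTB8, HIS1-3 and AT1G72740, are limited by depth. So are HTR12, HTA8, HTA1 and HTA13 in 11 day cotyledons, with 6, 13, 12 and 6 reads, and HTA1 in seeds, with 15 reads.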

Other observations

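Some genes that act beside the histones, chosen after their values were seen, did not share the course of their partners. SSRP1 and SPT16 are the subunits of FACT, a chaperone that opens nucleosomes for polymerases. SSRP1 had a normalized value of 1017 in euphyllas and 1439, 706, 951 and 1839 in seeds and cotyledons of 3, 7 and 11 days, while SPT16 had 1075 in euphyllas and 1272, 760, 710 and 478. SSRP1 was 1.93-fold (1.78 to 2.10) higher in 11 than in 7 day cotyledons. SPT16 had a ratio of 0.673 (0.596 to 0.760) in that pair. The SSRP1 unigene is 5497 bp long and may be joined to another transcript, which was not tested.

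MCM2, a subunit of the replication helicase that also binds H3 and H4, had 1737 in euphyllas and 741, 1180, 3855 and 1707 in the same series. MCM5, of the same hexamer, had 737 in euphyllas and 235, 592, 412 and 66.5. The ratio of euphyllas to 11 day cotyledons was 1.02 (0.948 to 1.09) for MCM2 and 11.1 (8.54 to 14.6) for MCM5. The MCM2 unigene is 5898 bp long, and whether it is joined to another transcript was not tested.

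Of the 11 chaperones with a unigene, NAP1;2, MSI1, NRP2, NAP1;3 and SPT16 were highest in seeds. ASF1A was about level in seeds and 3 day cotyledons, with 39.6 and 37.6, and the interval of their ratio included 1. Of the 18104 unigenes that had 20 reads or more in all libraries together, 29.3% were highest in seeds. NAP1;2, an H2A and H2B carrier, had 1377 in euphyllas and 2323, 1764, 480 and 980 in seeds and cotyledons of 3, 7 and 11 days. MSI1, a histone binding subunit shared by several complexes, had 496 in euphyllas and 939, 525, 362 and 337. ATXR6, a methyltransferase that acts on H3.1, was like HTR2 highest in euphyllas and lowest in 11 day cotyledons. It had 86.7 in euphyllas and 16.3, 66.1, 56.7 and 4.29, the last from 4 reads. ATXR5, on the same list, did not follow HTR2, with 43.9 in euphyllas and 21.9, 30.5, 47.3 and 42.9. Its ratio of euphyllas to 11 day cotyledons was 1.02 (0.639 to 1.64).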
